A study of Mus musculus with 6 samples.

Results

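Knockdown of Thoc5 was read on 4 of the 6 arrays of the series: 2 arrays of J1 cells transfected with an siRNA against Thoc5 and 2 arrays of J1 cells transfected with a non-targeting siRNA (NT). J1 is a mouse embryonic stem cell line; both groups were kept in ESGRO medium, moved to M10 medium for the transfection and harvested 96 hours after it, and both groups carry no other treatment in the labels. The other 2 arrays, of Thoc2 siRNA at the same time, entered the fit for the estimate of the spread. Each array was a single-colour (Cy3) Agilent expression array of total RNA. Of 41174 probes that were not controls, 26395 were kept because they were well above background on both arrays of either group, and they gave 17887 genes. The labels do not say whether the replicates came from separate cultures, so the tests measure the spread between arrays, which may be technical. The series title places the work in a study of how the THO complex handles the mRNA of pluripotency genes in stem cell self-renewal.

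Thoc5 is a subunit of THO, which is loaded on mRNA while it is being made. THO recruits the helicase Ddx39b and the adaptor Alyref to form TREX, and TREX hands the mRNA to the export receptor Nxf1. Total RNA pools nuclear and cytoplasmic mRNA, so a difference here is one of the total level of an mRNA. A level is the log2 processed signal of a gene's brightest kept probe minus the 75th percentile of the array, and levels of different genes cannot be set against each other, because probes differ in brightness.

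Thoc5 replicate 1 was the dimmest of the arrays. Its 75th-percentile signal was 306, against 738 on Thoc5 replicate 2 and 817 and 905 on the NT arrays, and 56.7% of its spots were well above background, against 68.3% to 73.3% on the other 3. Values are therefore given below for each array. NT replicate 2 and Thoc5 replicate 2 shared a slide, and NT replicate 1 and Thoc5 replicate 1 lay on slides of their own within the comparison. Of 9 embryonic stem cell markers all 9 were well above background on all 4 arrays. Their log2 summed level, in which bright probes weigh most, was 9.97 and 10.05 with NT siRNA and 9.98 and 9.65 with Thoc5 siRNA. Taken singly, 7 of the 9 were lower with Thoc5 siRNA without overlap and 0 were higher (33.3% and 22.6% of all genes).

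The probe for Thoc5 (A_51_P467618) lies on chromosome 11 from 4870150 to 4870210 in mm7, the mouse build of the file headers. Bases 16 to 45 of its 60 are shown, because the check of the knockdown rests on this 1 probe; no bases are in capitals.
Thoc5: atccgggagatcatgggaaaaaactccaaa
The level of Thoc5 was 1.31 and 1.57 with NT siRNA and 0.34 and -0.0018 with Thoc5 siRNA, in the order of replicates 1 and 2. Both Thoc5 siRNA arrays lay below both NT arrays, and the dim array was the closer of the 2 to them. The mean difference was -1.27 ± 0.27 (SE of the limma fit, n = 2 arrays per group), which left 41.4% of the NT level. The Benjamini-Hochberg adjusted p was 0.101 in limma, so the difference did not pass the threshold of 0.05 over all genes. With a variance trend on intensity in limma the adjusted p was 0.0434. Among the other 5 core subunits of THO the mean differences lay between -0.59 (Thoc7, on an SE of 1.28) and 0.79 (Thoc1). Thoc7 was at 3.37 and 3.55 with NT siRNA and at 2.74 and 3.01 with Thoc5 siRNA. Its SE takes in the Thoc2 siRNA arrays, at -1.07 and 2.81. Thoc1 was at 0.13 and 0.17 with NT siRNA and at 0.88 and 0.997 with Thoc5 siRNA, with no overlap of the arrays. The difference of Thoc1 was 0.79 ± 0.20, with an adjusted p of 0.127 in limma. Its other 2 kept probes ran from -0.23 to 0.64, so the probes disagreed. Thoc2 (0.009 ± 0.28), Thoc3 (0.11 ± 0.17) and Thoc6 (0.31 ± 0.16) lay within 2 SE of 0, and those of Thoc2 and Thoc3 turned sign with normexp correction of the signals. Of the 18 TREX and export partners 0 were past the adjusted threshold in limma, with 4 higher and 2 lower at an unadjusted p under 0.05 (8.22% and 13.8% of all genes), and 0 passed with the variance trend. Fyttd1, an export adaptor, was lowest (-0.71 ± 0.20), and Ncbp2, the small subunit of the nuclear cap-binding complex, was highest (0.53 ± 0.18).

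Over all genes, limma called 0 of 17887 at an adjusted p under 0.05, with a smallest adjusted p of 0.0728, while 3934 genes (22.0% of those tested) had an unadjusted p under 0.05, 1470 higher (8.22%) and 2464 lower (13.8%). Both other fits of the same arrays that follow made calls. Among the 15295 genes that were well above background on all 4 arrays, 490 passed (3.20%), 220 higher (1.44%) and 270 lower (1.77%) with Thoc5 siRNA; this is called the bright-gene fit below. With an intensity trend and robust variances 804 of all 17887 genes passed (4.49%), 311 higher (1.74%) and 493 lower (2.76%); this is called the trend fit. The 2 fits shared 370 genes, 75.5% of the first list and 46.0% of the second, of which 156 were higher and 214 lower with Thoc5 siRNA. The calls of both fits needed all 4 arrays. With any 1 of the 4 left out, alternatives added after the data were seen, the bright-gene fit of limma called 0 genes at the adjusted threshold and 2170 to 3335 at an unadjusted p under 0.05, and the trend fit called 0 or 1 and 2591 to 3613.

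A count with no test was made as well: 1809 genes (10.1%) differed by at least 2-fold with no overlap between the arrays of the groups, 597 higher (3.34%) and 1212 lower (6.78%). The filter was unequal between the groups: 3475 probes were kept through the NT arrays alone and 391 through the Thoc5 arrays alone. Among the 15295 genes well above background on all 4 arrays the counts were 448 higher (2.93%) and 608 lower (3.98%). The split also moved with background correction: after normexp correction of the raw signals the counts were 2029 higher and 331 lower. Leaving out a replicate leaves 1 array in its group and an easier test of overlap: the count was 3021 without NT replicate 2 and 2851 without Thoc5 replicate 2. Of 426 other kept probes of these genes, 364 (85.4%) differed in the same direction as the gene's brightest probe. The median gene lay at -0.092 in log2, with 57.7% of genes below 0 and 42.3% above it, and at 0.15 after normexp, and single genes near these values can turn sign with the correction.

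**Figure D1:**
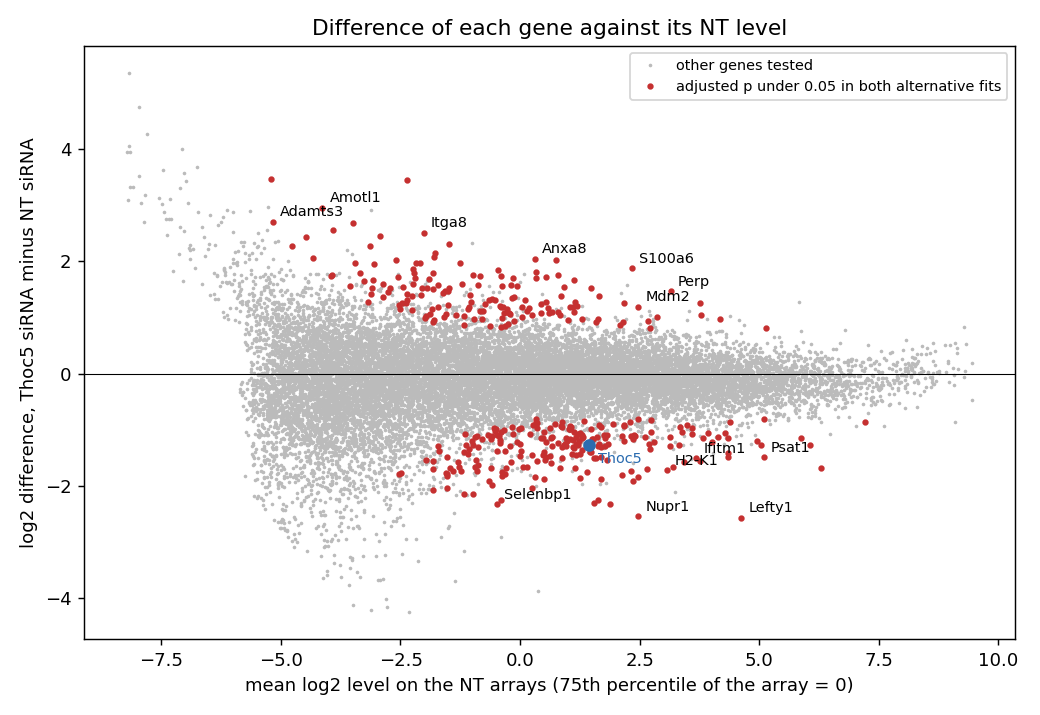
Log2 difference between Thoc5 and NT siRNA (vertical) of each of the 17887 genes against its mean level on the NT arrays (horizontal); each point is a gene, red where it passed in both the bright-gene and the trend fit (370 genes), and blue for Thoc5. The spread of the grey points is wider for dim genes, and Lefty1 (-2.57) and Nupr1 (-2.54) are the lowest of the named red points.

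The genes were cut into 5 equal bins by NT level. In the dimmest bin the median of Thoc5 replicate 1 minus NT replicate 1 was -0.42, and that of Thoc5 replicate 2 minus NT replicate 2 was 0.38. In the brightest bin both were below 0, at -0.064 and -0.16. The dim genes thus ran in opposite directions in these 2 differences. The arrays were matched by replicate number, which the labels do not give as pairs, and an NT array enters each difference. The dimmest bin held 331 of the 597 genes at least 2-fold higher and 458 of the 1212 at least 2-fold lower and 14 of the 311 higher and 2 of the 493 lower calls of the trend fit.

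**Figure D2:**
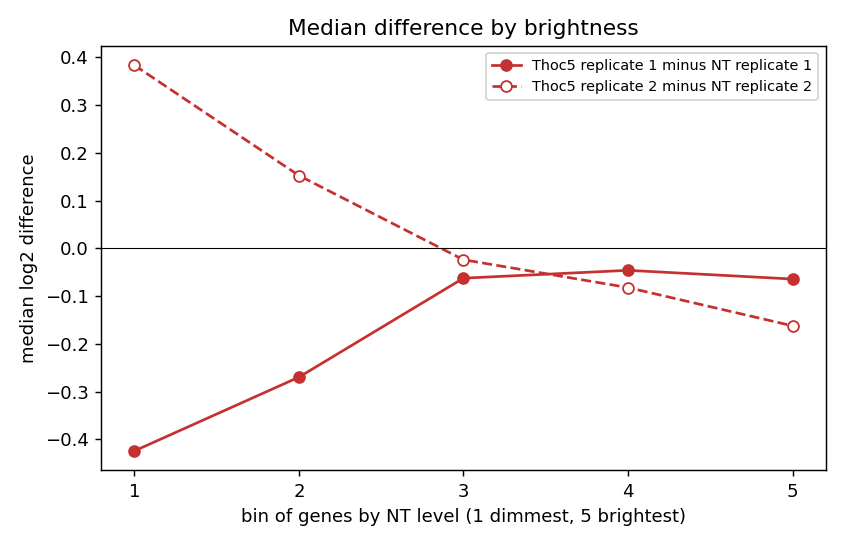
Median log2 difference (vertical) in 5 equal bins of genes ordered by NT level from dimmest to brightest (horizontal), for Thoc5 replicate 1 minus NT replicate 1 (filled) and Thoc5 replicate 2 minus NT replicate 2 (open). The lines lie on opposite sides of 0 in the dimmest bin, at -0.42 and 0.38, and both lie below 0 in the brightest.

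Differences were ranked among genes well above background on all 4 arrays, with no overlap of the groups and an unadjusted p under 0.05 in limma. The largest positive ones were those of the predicted loci LOC666699 (3.47 ± 0.30) and LOC666415 (3.45 ± 0.38). They were followed by Amotl1, a junction protein that binds the Hippo effector YAP, at -4.07 and -4.21 with NT siRNA and -1.28 and -1.08 with Thoc5 siRNA (2.95 ± 0.36; adjusted p 0.040 in the bright-gene fit). Its other kept probe differed by 1.90. Fbp2 (2.91 ± 0.61) and Gpat3 (2.90 ± 0.92) came next. Fbp2 passed in the trend fit alone, and Gpat3, at -2.78 and -5.17 with NT siRNA, passed in neither fit. Adamts3, a protease that processes procollagen and Vegfc, was higher by 2.71 ± 0.20. Itga8, an integrin alpha chain that binds nephronectin, was at -2.16 and -1.87 with NT siRNA and 0.32 and 0.67 with Thoc5 siRNA (2.51 ± 0.23), and its other kept probe differed by 2.70. Both Thoc5 arrays lay above both NT arrays for each of these genes. Of the ligands of the Wnt family, Wnt10a was higher by 2.45 ± 0.20, Wnt6 by 1.97 ± 0.20 and Wnt3 by 1.75 ± 0.23. Insm1, a zinc-finger factor of endocrine and neural precursors, was higher by 2.28 ± 0.24.

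Among the other genes past the threshold in both fits were several secreted or membrane-binding proteins, chosen as examples after their values were seen. Anxa8, a calcium-dependent membrane-binding annexin, was at 0.23 and 0.38 with NT siRNA and 2.44 and 2.26 with Thoc5 siRNA (2.05 ± 0.17). Anxa1, of the same family, was higher by 1.76 ± 0.28. S100a6, a small calcium-binding protein, was at 2.25 and 2.41 with NT siRNA and 4.01 and 4.41 with Thoc5 siRNA (1.87 ± 0.24). Edn2, an endothelin peptide, was higher by 1.97 ± 0.18, Thbs1, a secreted matrix protein, by 2.06 ± 0.27, and Penk, which encodes enkephalin precursors, by 1.76 ± 0.23. The arrays of the groups did not overlap for any of the 6.

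At the other end, again among genes well above background on all 4 arrays, NAP052136-1 (-3.17 ± 0.95), Gm428 (-2.91 ± 0.65) and 2900052N01Rik (-2.76 ± 1.00) had larger negative differences than Lefty1. They did not overlap between groups but passed in neither the bright-gene nor the trend fit. Their SE takes in the Thoc2 siRNA arrays, which were at -3.47 and -0.68 for NAP052136-1 and at -3.70 and -0.86 for 2900052N01Rik. For Gm428 the Thoc5 siRNA arrays were apart, at -2.41 and -4.19. Lefty1, a secreted inhibitor of Nodal signalling, was at 4.62 and 4.65 with NT siRNA and at 2.02 and 2.10 with Thoc5 siRNA (-2.57 ± 0.14), or 16.9% of the NT level. Its neighbour Lefty2, with the same role, was at 1.53 and 1.58 against -0.82 and -0.696 (-2.32 ± 0.28). Their probes matched at 20 of 57 aligned bases, so the probes share little sequence. Neither probe was compared with the mRNA of the other gene, so it is not shown that the readings are independent. The Lefty1 and Lefty2 probes lie on chromosome 1 of mm7, from 180917655 to 180917714 and from 180877495 to 180877554. Selenbp1 (-2.33 ± 0.24) and Selenbp2 (-2.15 ± 0.22), selenium-binding proteins, were both lower, but these are not independent readings. Their probes matched at 51 of 54 aligned bases, and the 30-base windows are shown with the bases that differ in capitals.
Selenbp1: ttttcttaagtgagctcctggaagcaccAA
Selenbp2: ttttcttaagtgagctcctggaagcaccTG
Spn, the membrane sialoprotein CD43, was at -2.33 ± 0.28, with another probe at -1.76. Tekt1, a structural protein of cilia, was at -2.26 ± 0.26 with another probe at -1.98. Slc2a5, the fructose transporter, was at -2.25 ± 0.26, and Dpys, an enzyme of pyrimidine breakdown, at -1.85 ± 0.16. Egln3, an oxygen-sensing prolyl hydroxylase, was at -2.04 ± 0.22, Bnip3, a mitophagy receptor, at -1.57 ± 0.20 and Mgarp, a mitochondrial protein, at -1.85 ± 0.25. Each gene named so far from Lefty1 on passed in both fits, and both arrays of each group stood apart. Lalba (-2.48 ± 0.73) and Olfr524 (-2.18 ± 0.57), also among the largest negative differences, passed in neither.

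**Figure D3:**
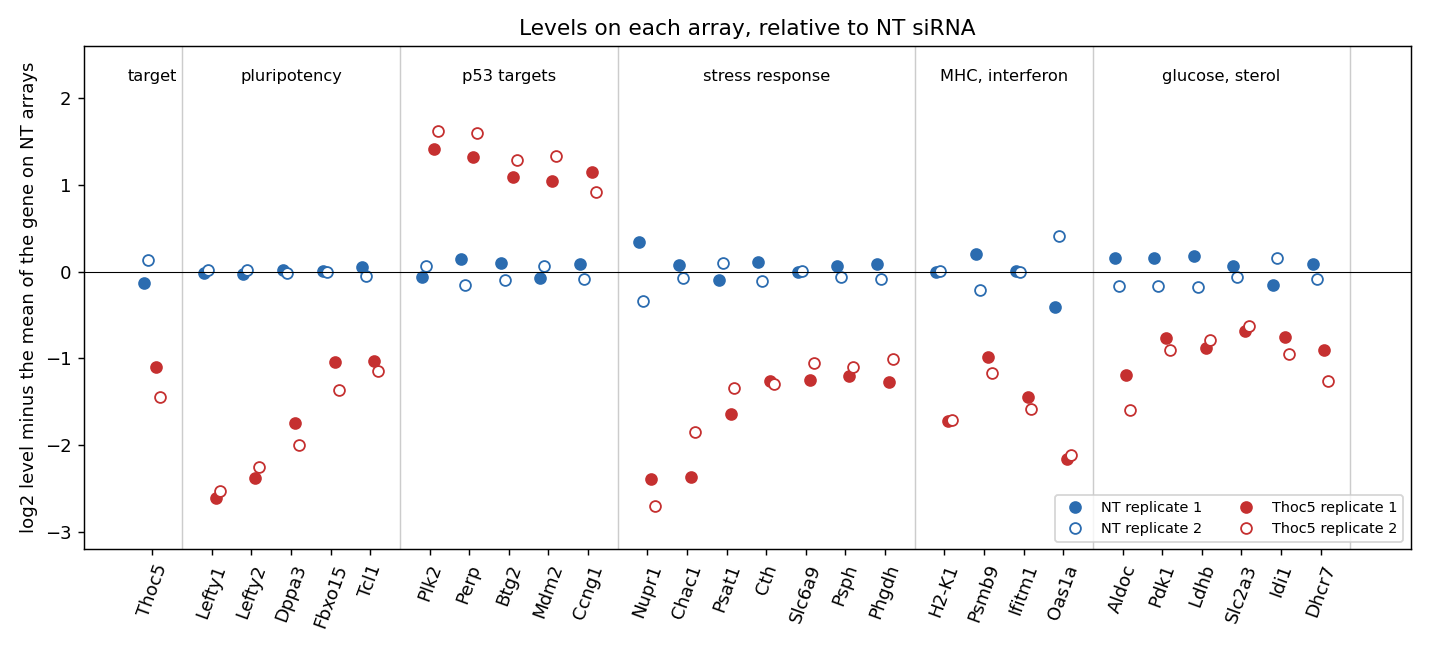
Log2 level of each gene on each array minus its own mean on the NT arrays (vertical), for Thoc5 and for members of 5 groups of lists (horizontal); NT arrays are blue, Thoc5 siRNA arrays red, replicate 1 filled and replicate 2 open. The 5 p53 targets lie above the NT arrays on both Thoc5 arrays, and the other genes shown lie below them on both.

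Of the integrated stress response list, 34 of 35 genes were measured; many are targets of the factor Atf4 that serve the supply of amino acids. Of the 34, 30 lay below 0 (57.7% of all genes did), with a median log2 difference of -0.76 against -0.092 for all genes, and the medians on the arrays taken singly were close: -0.66 on Thoc5 replicate 1 and -0.72 on replicate 2, after the median of all genes was taken off. At least 2-fold lower without overlap were 13 (6.78% of all genes), or 12 of the 33 that were well above background on all 4 arrays (3.98%), and 0 were 2-fold higher; 8 were lower in the trend fit (2.76% of all genes) and 6 in the bright-gene fit (1.77%). Nupr1, a stress-induced chromatin protein, was at 2.81 and 2.13 with NT siRNA and at 0.086 and -0.23 with Thoc5 siRNA (-2.54 ± 0.41). Chac1, which breaks down glutathione, was at 3.31 and 3.16 against 0.87 and 1.39 (-2.11 ± 0.44; adjusted p 0.066 in the bright-gene fit and 0.0454 in the trend fit). The 3 enzymes of serine synthesis were all lower: Phgdh at -1.14 ± 0.17, Psat1 at -1.49 ± 0.21 and Psph at -1.15 ± 0.16. Psat1 was at 4.999 and 5.19 with NT siRNA and 3.46 and 3.76 with Thoc5 siRNA. Cth, the last enzyme of cysteine synthesis, was at -1.28 ± 0.15, and Slc6a9, a glycine transporter, at -1.15 ± 0.16. Atf4 itself was at -0.39 ± 0.26, with overlapping arrays. Ddit3, a factor of the terminal arm of the response, was at 0.52 ± 0.46, also with overlapping arrays.

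The promoters of this list were searched for TGATGNAA, the core of the site that Atf4 and C/EBP factors bind together, on both strands in the 250 bases before the annotated start (RefSeq, GRCm38.p6). Of the 28 measured members with a promoter entry 7 held it (25%), against 2.62% of the 11715 tested genes with an entry and 3.45% of all windows in that table. The list was assembled around known Atf4 targets, so this share says nothing about the knockdown, and binding was not measured here. The 4 sequences show the motif in capitals in members that were lower with Thoc5 siRNA; a capital run of TTGCATCA is the motif read on the other strand.
Nupr1 chr7:126625548-126625605: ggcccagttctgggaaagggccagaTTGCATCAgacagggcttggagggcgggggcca
Chac1 chr2:119351024-119351081: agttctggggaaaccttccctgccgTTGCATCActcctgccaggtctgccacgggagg
Asns chr6:7693210-7693257: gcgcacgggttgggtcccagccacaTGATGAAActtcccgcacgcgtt
Vldlr chr19:27216795-27216852: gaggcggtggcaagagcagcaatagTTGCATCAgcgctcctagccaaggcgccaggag
Asns, asparagine synthetase, was at -0.93 ± 0.26 and Vldlr, a lipoprotein receptor, at -1.03 in log2. Aars, an alanine tRNA ligase that also holds the motif, was at -0.10.

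All 33 p53 targets were measured. Of these 24 lay above 0 (42.3% of all genes did), and the median was 0.38; 5 were at least 2-fold higher without overlap (3.34% of all genes), 0 were 2-fold lower, 6 were higher in the trend fit (1.74% of all genes) and 5 in the bright-gene fit (1.44%). Plk2, a kinase induced by stress, was at 1.42 and 1.55 with NT siRNA and 2.90 and 3.11 with Thoc5 siRNA (1.52 ± 0.20). Perp, a membrane protein of desmosomes, was at 1.46 ± 0.19 and Btg2, an antiproliferative cofactor of mRNA deadenylation, at 1.19 ± 0.16. Mdm2, the ubiquitin ligase that degrades p53, was at 2.397 and 2.54 against 3.51 and 3.79 (1.19 ± 0.17), with another probe at 2.02. Ccng1, a cyclin, was at 1.04 ± 0.17. Trp53 itself was at 0.17 ± 0.15, and Cdkn1a, the cell cycle inhibitor most used as a readout of p53, was at 0.066 ± 0.15. Gdf15 lay below 0 with no overlap of the arrays (-0.76 ± 0.17), so members lay on both sides of 0. On normexp-corrected signals the median of the list was 0.17 against 0.15 for all genes. With normexp 4 of the 33 were at least 2-fold higher, as were 2029 of all 17887 genes.

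Of the 24 measured p53 targets with a promoter entry, 9 held a p53 half-site (37.5%) in the 250 bases before the start, against 7.23% of tested genes with an entry and 7.13% of all windows. The half-site was searched by its consensus on both strands, and the list was assembled from known targets, so the share says nothing about the knockdown. Mdm2 and Ccng1 are shown, with the half-site in capitals.
Mdm2 chr10:117710910-117710969: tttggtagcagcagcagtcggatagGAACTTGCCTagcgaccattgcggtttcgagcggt
Ccng1 chr11:40755437-40755496: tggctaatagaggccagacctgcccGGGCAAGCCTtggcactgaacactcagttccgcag

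The pluripotency factors held 36 measured genes of 39, all well above background on all 4 arrays, of which 30 lay below 0 (57.7% of all genes did) with a median of -0.26, which was -0.55 with normexp. At least 2-fold lower without overlap were 5 (6.78% of all genes), and the same number was lower in the bright-gene fit (1.77%), while 7 were lower in the trend fit (2.76%). None was higher by any of these 3 measures. Besides Lefty1 and Lefty2 the 2-fold genes were Dppa3, Fbxo15 and Tcl1. Dppa3, a maternal factor that protects DNA methylation, was at 0.53 and 0.49 with NT siRNA and -1.23 and -1.50 with Thoc5 siRNA (-1.87 ± 0.16). Fbxo15, a target of Oct4, was at -1.21 ± 0.17 and Tcl1, an Akt cofactor, at -1.09 ± 0.14. The factors of the core network differed by less. Pou5f1, which encodes Oct4, was at 4.56 and 4.18 against 3.43 and 3.56 (-0.88 ± 0.21; adjusted p 0.0524 in the trend fit), Sox2 at -0.52 ± 0.18, Nanog at -0.499 ± 0.15, Klf4 at -0.36 ± 0.15, Esrrb at -0.27 ± 0.17 and Zfp42 at -0.49 ± 0.22. The arrays of the groups did not overlap for these 6, and none of the 6 passed in limma or in either alternative fit.

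The genes of antigen presentation and of the interferon response include members that the filter kept only through the NT arrays, 2 and 5 in number. These were not well above background on at least 1 Thoc5 array, so the filter favoured low values with Thoc5 siRNA among them. Of 15 measured genes of MHC class I and antigen processing 14 lay below 0, with a median of -0.69. Among the 13 that were well above background on all 4 arrays 12 lay below 0 and 2 were at least 2-fold lower without overlap (3.98% of all such genes), H2-K1 and Psmb9. H2-K1, a class I heavy chain, was at 3.07 and 3.09 with NT siRNA and at 1.35 and 1.37 with Thoc5 siRNA (-1.72 ± 0.14), and its 2 other kept probes were at -1.42 and -0.80. Psmb9, a subunit of the immunoproteasome, was at -1.08 ± 0.20 and passed in the trend fit alone. Of 13 interferon response genes well above background on all 4 arrays 11 lay below 0, 4 were at least 2-fold lower without overlap and 0 were 2-fold higher (3.98% and 2.93% of all such genes); 2 were lower in the bright-gene fit (1.77%) and 3 in the trend fit (2.76%). Over all 19 kept members the 2-fold counts were 7 lower and 2 higher (6.78% and 3.34% of all genes). They take in Oasl1, Oasl2 and Gbp2, each kept through NT alone. Oasl2 and Gbp2 turned sign with normexp. Ifitm1, a membrane protein that restricts virus entry, was at 3.69 and 3.68 against 2.25 and 2.10 (-1.51 ± 0.14), and Oas1a, an oligoadenylate synthetase, at -2.14 ± 0.34. Over all kept members, without NT replicate 1 there were 4 interferon genes and 1 MHC gene at least 2-fold lower, in place of 7 and 3. Over all genes the count lower was then 1194 of 17887, in place of 1212. Without NT replicate 2 the MHC count was 5, and that of all genes was 2083 of 17887. With normexp the median of the interferon list was -0.094 and 7 of its members lay above 0.

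Of 19 genes of glycolysis and glucose uptake 16 lay below 0 (57.7% of all genes did), with a median of -0.52. At least 2-fold lower was 1 (6.78% of all genes). With normexp the count was 4 (331 of all 17887 genes), and without NT replicate 2 it was 2 (2083 of 17887). In the bright-gene fit 1 was lower (1.77% of all genes), and in the trend fit 4 were lower (2.76%). The 4 were Aldoc (-1.39 ± 0.22), an aldolase, Pdk1 (-0.83 ± 0.17), which holds back pyruvate oxidation, Ldhb (-0.83 ± 0.18) and the glucose transporter Slc2a3 (-0.65 ± 0.15). The arrays of both groups stood apart for each of the 4. Of 22 cholesterol synthesis genes 20 lay below 0 (median -0.42), with 3 lower in the trend fit (2.76% of all genes), Idi1 (-0.85 ± 0.18), Dhcr7 (-1.08 ± 0.24) and Nsdhl (-0.92 ± 0.18), and 0 in the bright-gene fit (1.77%). Of 40 cytosolic ribosomal protein genes 0 were 2-fold apart and 0 passed in either alternative fit; their median against all genes was 0.396 on Thoc5 replicate 1 and -0.096 on replicate 2.

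**Figure D4:**
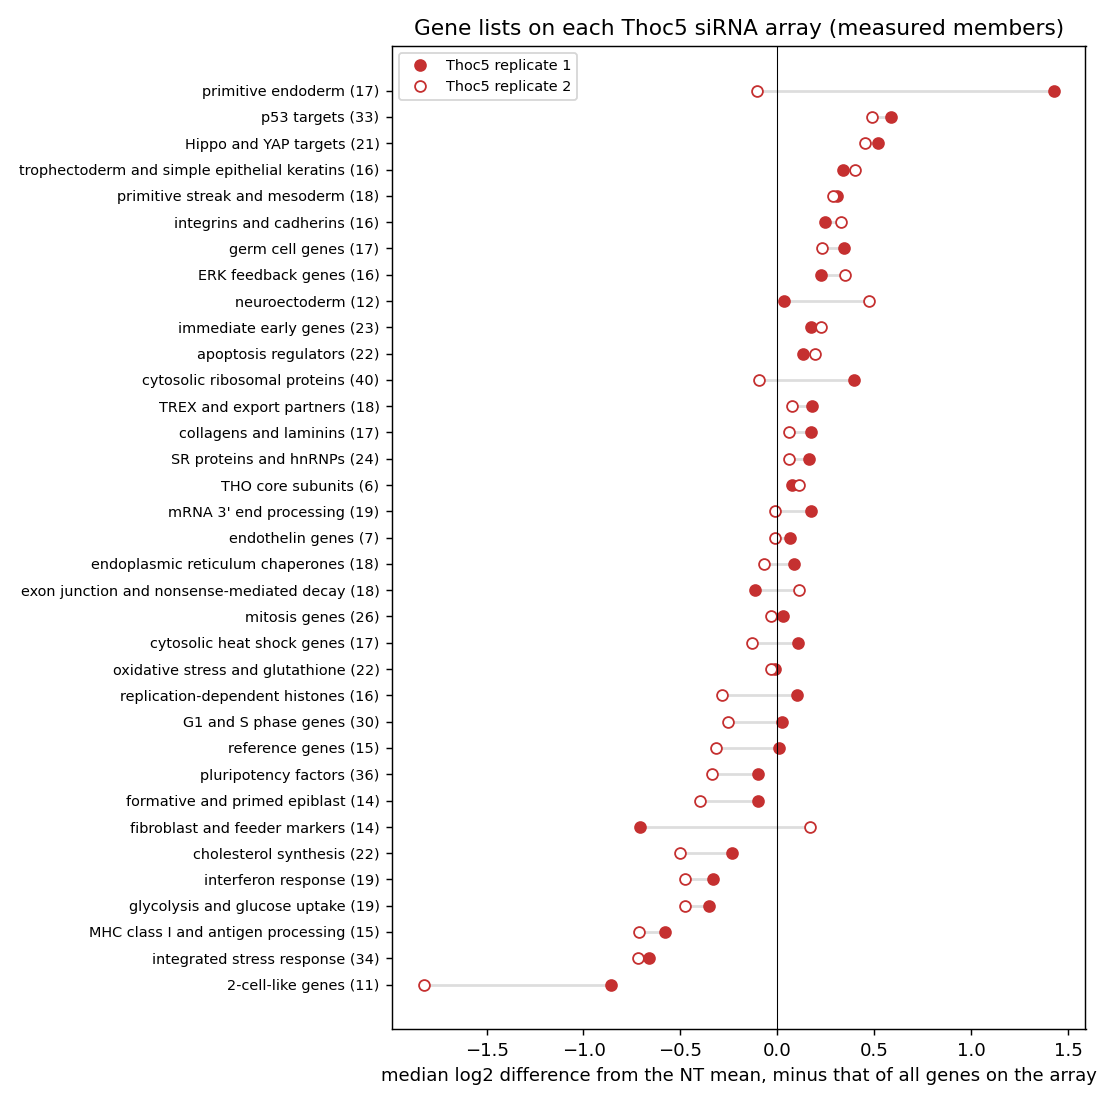
Median log2 difference from the NT mean over the measured members of each list, minus that of all genes on the same array (horizontal), for 35 lists (vertical, number of measured members in brackets) on Thoc5 replicate 1 (filled) and replicate 2 (open). The integrated stress response (-0.66 and -0.72) and p53 targets (0.59 and 0.49) lie close together on both arrays, and primitive endoderm (1.43 and -0.11) does not.

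Genes of growth signalling lay on both sides of 0. Of 21 measured Hippo and YAP targets 4 were at least 2-fold higher and 1 lower without overlap (3.34% and 6.78% of all genes; median 0.44). The lower gene, Cavin2, a caveolar coat protein, was kept through the NT arrays alone, being well above background on only 1 Thoc5 array, and it turned sign with normexp. The higher genes were Amotl1, Ankrd1 (2.002 ± 0.34), Ccn1 (1.56 ± 0.31) and Ccn2 (1.02 ± 0.39), the last 3 of which are classic YAP targets. Without NT replicate 2 the median was 0.10. Of 16 ERK feedback genes 3 were higher and 1 lower in the trend fit (1.74% and 2.76% of all genes). Phlda1 (1.73 ± 0.16), the phosphatase gene Dusp6 (0.87 ± 0.19) and Etv4 (0.73 ± 0.15) were higher, and Spry1 (-0.69 ± 0.15), an inhibitor of the pathway, was lower. In the bright-gene fit 2 of the list were higher and 0 lower (1.44% and 1.77% of genes tested there). Of 23 immediate early genes 4 were at least 2-fold higher without overlap (3.34% of all genes), Fosl1 (1.57 ± 0.24), Ccn1, Atf3 (1.38 ± 0.24) and Jun (1.17 ± 0.18), and 1 was lower (6.78%), Ier3 (-1.47 ± 0.75). The bright-gene fit called Fosl1, Jun and Atf3, and the trend fit called 4 higher and Egr1 lower (-0.71 ± 0.15). Of 16 integrins and cadherins 4 were higher and 1 lower in the trend fit (1.74% and 2.76% of all genes). Itga3 (1.08 ± 0.16) was the highest and Itga9 (-1.01 ± 0.18) the lower one. In the bright-gene fit 1 of these was higher and 0 lower (1.44% and 1.77% of genes tested there).

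In the lineage lists, single genes stood out. Of 14 trophectoderm and keratin genes well above background on all 4 arrays 3 were at least 2-fold higher without overlap (2.93% of all such genes) and 0 lower: Gata3 (1.85 ± 0.16), Tead4 (1.53 ± 0.17) and Krt7 (1.06 ± 0.37). Hand1 (1.16 ± 0.20) was kept through the Thoc5 arrays alone, the group in which it was high. The log2 summed level of 8 measured trophoblast markers was 2.04 and 2.13 with NT siRNA and 1.77 and 2.16 with Thoc5 siRNA. Cdx2, which specifies trophectoderm, was at 0.52 ± 0.30 with overlapping arrays. Of 17 measured germ cell genes Taf7l, a testis form of a transcription initiation factor, was highest (2.16 ± 0.23, with another probe at 2.63), followed by Slc25a31 (1.52 ± 0.24) and Ddx4 (1.21 ± 0.27); these 3 were at least 2-fold higher without overlap (3.34% of all genes). In the formative and primed epiblast list Dnmt3a, a DNA methyltransferase (-1.25 ± 0.16), Otx2 (-1.03 ± 0.16) and Fgf15 (-1.06 ± 0.24) were lower by at least 2-fold (3 of 14 measured genes, against 6.78% of all genes). The epiblast count was 1 without NT replicate 1, and 1 with normexp (1194 and 331 of all 17887 genes). Of 8 2-cell-like genes well above background on all 4 arrays 5 were at least 2-fold lower (3.98% of all such genes), 1 of which, Dppa3, passed in either fit. Over all 11 kept members 6 were lower (6.78% of all genes), but 3 of the 11 were kept through NT alone. Among these was Usp17lb, which was not well above background on either Thoc5 array and turned sign with normexp. The spread was wide for Zscan4c, at 2.26 and 1.35 with NT siRNA and 0.596 and -0.88 with Thoc5 siRNA (-1.95 ± 0.58). Over all kept members the 2-cell-like count was 4 without NT replicate 1, and with normexp it was 2 (1194 and 331 of all 17887 genes). The log2 summed level of 5 measured 2-cell-like markers was 2.699 and 1.76 with NT siRNA and 1.15 and -0.296 with Thoc5 siRNA.

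Primitive endoderm genes differed more between replicates than between groups. Gata6, a factor of that lineage, was at 0.78 and -2.35 with NT siRNA and at 1.55 and -0.31 with Thoc5 siRNA (1.40 ± 1.20). The log2 summed level of 10 markers of this cell type was 3.85 and 0.69 on the NT arrays and 3.95 and 2.10 on the Thoc5 arrays, so replicate 1 was the higher in both groups, and their part in other results was not tested. The median of the primitive endoderm list was 0.48, and it was 1.84 without NT replicate 1 and -0.67 without NT replicate 2, 1.30 without Thoc5 replicate 2 and -0.14 without Thoc5 replicate 1. Sox1 (-0.15 ± 0.79), a neural factor, and T (-0.59 ± 1.04), a mesoderm factor, had overlapping arrays, and both turned sign with normexp. Of 20 fibroblast and feeder markers 14 were measured, and their log2 summed level was 5.59 and 5.51 with NT siRNA and 6.04 and 6.23 with Thoc5 siRNA. Thy1 was at -2.01 ± 0.39 and S100a6 at 1.87 ± 0.24. Of the 14, 1 was at least 2-fold higher and 4 lower without overlap (3.34% and 6.78% of all genes). The defining markers Col3a1, Postn and Lum were not kept. The part of fibroblast RNA in other results was not tested.

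Genes read on 1 side alone give a bound. Otc, a urea cycle enzyme, was not well above background on either NT array, and its mean with Thoc5 siRNA was at least 10.5-fold higher. Fabp1, a fatty acid carrier, was not well above background on either Thoc5 array and was at least 10.4-fold lower there than the NT mean. Both were picked for large bounds, and each was kept through the brighter group alone. The bound sets the brighter group's mean against the lowest level well above background on each dim array, or the gene's own level where that is higher. The Thoc5 siRNA values of Otc were -1.44 and -4.197, and the NT values of Fabp1 -0.46 and -4.17. The replicates of the brighter group were thus far apart in both, and the bounds hold for the means, not for each replicate.

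The Thoc5 siRNA arrays were also set against the 2 arrays of siRNA against Thoc2, the large scaffold subunit of the same complex. No gene of 17886 passed the adjusted threshold in limma or in the trend fit, and at an unadjusted p under 0.05 458 were higher (2.56%) and 1223 lower (6.84%) with Thoc5 siRNA. Some genes high with Thoc5 siRNA also lay above their Thoc2 siRNA level. They are examples named for large differences in these same data, so the size of a difference against its SE is no test here. Anxa8 was higher than with Thoc2 siRNA by 1.95 ± 0.17, Taf7l by 2.003 ± 0.23, Amotl1 by 1.81 ± 0.36, Atf3 by 1.77 ± 0.24 and Btg2 by 1.26 ± 0.16. For Lefty1 (-0.17 ± 0.14), Lefty2 (0.046 ± 0.28), Dppa3 (0.12 ± 0.16), H2-K1 (-0.027 ± 0.14) and Slc2a3 (0.053 ± 0.15) the difference between the 2 knockdowns lay within 2 SE of 0, which does not show that they are equal. The 8 genes furthest below their Thoc2 siRNA level, led by Cd22 (-4.09 ± 0.58), were not well above background on either Thoc5 array, so their differences are not folds.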

How the data were processed

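Each array was 1 single-colour Agilent scanner file. Per the file headers, the deposited processed signal intensity is background-subtracted and detrended (Feature Extraction 9.5.3.1; 11.0 per the submitters' processing notes). A deposited table of log2 values with equal quantiles on every array (no header says how it was made) was an alternative. Levels were log2 processed signal minus the array's 75th percentile; control and outlier-flagged spots were left out, spots of a probe averaged (a probe was well above background if at least 0.5 of its spots were), and the brightest kept probe stood for a gene; 281 genes lacked a value on an array. Names came from accessions or symbols in a RefSeq table (GRCm38.p6, names only); 8443 of 41174 probes kept the file's name. Tests used R 4.3.3 and limma 3.58.1 on all 6 arrays (3 residual, 1.66 prior degrees of freedom), two-sided, Benjamini-Hochberg at 0.05. An exact permutation of 2 against 2 cannot give a p under 0.333. The number of arrays limits the precision. On simulated arrays (20 draws) the fit called 5.08% of changes of 1 in log2 and 46.8% of changes of 2 (17606 genes). Only a small share of the genes was changed in each draw. The rates depend on that share, so they need not hold for these data. The members and lists were chosen with earlier results of these data known. The rule for named genes took THO and TREX genes, 10 stem cell and lineage genes, genes past the adjusted threshold in the trend fit (804, of which a few are named), the largest differences in each direction, up to 5 per list, genes with bounds, and the largest differences from Thoc2 siRNA.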

Additional observations from a re-analysis of the deposited data

Results flagged for a closer look

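The apoptosis regulators lay on opposite sides of all genes in the 2 knockdowns. Their median difference from the NT mean, minus that of all genes on the same array, was 0.1306 and 0.1959 on the Thoc5 siRNA arrays and -0.0935 and -0.1253 on the Thoc2 siRNA arrays. All 4 values are small, both knockdowns were set against the same NT arrays, and the difference was not tested.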

How the results depend on the processing

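In limma no gene passed the adjusted threshold in the Thoc5 against NT comparison with other scalings between arrays, normexp, no filter, the deposited table, the mean of all kept probes, outlier spots kept, the 4 arrays alone, or slide as a random block (consensus correlation 0.2351). Calls were made among genes well above background on all 4 arrays (490) and with an intensity trend (804). In those fits, with each array left out in turn (added after the data were seen), 0 genes passed in the first and 0 to 1 in the trend fit; at an unadjusted p under 0.05 the counts were 2170 to 3335 in the first, with 2284 without Thoc5 replicate 1, and 2591 to 3613 in the trend fit. The count at an unadjusted p under 0.05 was 1136 with normexp (559 higher, 577 lower, against 1470 and 2464) and 2259 to 3075 with 1 array left out. The 2-fold count was 2880 with no filter (1496 higher, 1384 lower), 1056 for genes well above background on all 4 arrays and 2169 to 3021 with 1 array left out. Thoc5 was at -1.27 in the trend fit, where it passed, and at -1.57 on the shared slide.

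Values of named genes that turned sign were Thoc2 (-0.17), Thoc3 (-0.071), Trp53 (-0.049), T (0.79), Sox1 (0.88), Cd22 (0.67), Cavin2 (0.54), Oasl2 (0.64), Gbp2 (0.15) and Usp17lb (0.53) with normexp, Aars with quantile normalization (0.031) and in the deposited table (0.029), and Sox1 with slide as a random block (0.014) and on the shared slide (0.87). With 1 array left out they were Thoc2 (-0.31 to 0.33), Thoc3 (-0.011 to 0.23), T (-1.25 to 0.066), Sox1 (-1.25 to 0.95), Gata6 (-0.16 to 2.97), Ddit3 (-0.15 to 1.19) and Cdkn1a (-0.021 to 0.15). The cause was not tested.

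With the replicate number as a replicate block, 0 genes passed, 3397 had an unadjusted p under 0.05 and the adjusted p of Thoc5 in limma was 0.183. The labels do not pair the samples. The deviations of same-numbered arrays correlated at 0.056 between NT and Thoc5 siRNA. With 2 arrays per group, and 1 of them dim, differences of dim probes are the least certain.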
